A study of Mus musculus with 12 samples.

Results

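The Polycomb group genes described here are 10 genes of the mouse array: Ezh1, Ezh2, Eed, Suz12, Jarid2, Mtf2, Rnf2, Ring1, Pcgf6 and Cbx7. Their probes were taken by gene name, with no measured value in the rule. They have 19 of the 41174 probes on the array, which carries 27670 gene names in all. RNA came from E14 mouse embryonic stem cells 72 hr after transfection with an esiRNA, a pool of short interfering RNAs made by enzymatic digestion of a long double-stranded RNA, at 0.33 ng per ul. The knockdown groups received esiRNA against p400 (Ep400, a chromatin remodelling ATPase) or Tip60 (Kat5, a histone acetyltransferase of the same complex), and the control group received esiRNA against EGFP, a sequence that is not from the mouse genome. All groups share the same cell line, the transfection reagent and the time, so none was an untransfected culture. The p400 experiment had 4 arrays, each holding p400 knockdown RNA and EGFP RNA in different dyes. Knockdown RNA was in Cy5 in replicates 1 and 3 and in Cy3 in replicates 2 and 4. The Tip60 experiment had single-colour arrays, and the comparison here sets Tip60 replicates 1, 2 and 4 against 4 EGFP replicates. The submitters set Tip60 replicate 3 aside for its intensity profile. The submitters call the replicates biological, and the labels do not say whether the EGFP RNA of the p400 and Tip60 experiments came from the same cultures.

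Polycomb proteins keep developmental genes silent through histone marks, mostly as Polycomb repressive complex 2 (PRC2) and Polycomb repressive complex 1 (PRC1). PRC2 is built on Eed, Suz12 and a methyltransferase, Ezh2 or Ezh1, which methylates lysine 27 of histone H3. Jarid2 and Mtf2 are accessory subunits that guide PRC2 to its sites and raise its activity. PRC1 is built on the ubiquitin ligases Rnf2 (Ring1b) or Ring1 (Ring1a), which mark histone H2A. Canonical PRC1 carries a Cbx protein that reads the PRC2 mark, and Cbx7 is the main one in embryonic stem cells. Variant PRC1 lacks it, and the variant with Pcgf6 silences germ cell genes in these cells.

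The targeted genes were read first as a check of the labels. The brightest Ep400 probe (mm7 chr5:109831052-109831111) had log2 ratios of -0.65, -0.77, -0.24 and -0.67 on p400 replicates 1 to 4, so Ep400 RNA fell by 0.58 on the log2 scale (limma, adjusted p = 0.00526). A second Ep400 probe had ratios of 0.06, -1.12, -0.57 and -1.24 on replicates 1 to 4 and a fitted change of -0.72 (limma, adjusted p = 0.00576). Replicate 1 showed no decrease at that probe. Another, dim probe gave 0.22 (limma, adjusted p = 0.0787). Where the esiRNA targets Ep400 is not given in the labels. Kat5 fell by 1.49 in Tip60 knockdown (limma, adjusted p = 1.5e-05) and by 0.43 in p400 knockdown (limma, adjusted p = 0.0107). Between 25073 and 30752 of 43379 spots were well above background in each RNA and array of the fits, against 22188 on Tip60 replicate 3. All 9 embryonic stem cell markers found on the array, of 10 listed, were well above background on all 4 EGFP arrays. In p400 knockdown 0 of the 9 rose and 3 fell, and in Tip60 knockdown 1 rose and 2 fell. Among all genes tested, 20.1% rose and 15% fell in p400 knockdown, and 14.8% rose and 9.5% fell in Tip60 knockdown. Between the 4 p400 arrays, the log2 ratios of all tested probes correlated at r = 0.65 to 0.83. In these bulk samples, fewer cells that express a gene and less of its RNA per cell cannot be told apart.

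Of the 19 probes, 18 were well above background on every array and were tested in both knockdowns. The exception was probe 1 of Jarid2 (mm7 chr13:44334556-44334615), matched to the transcript record AK044888, which stayed near background throughout, with 0 of 4 arrays well above it in either RNA of the p400 experiment. Probes are numbered from the 5′ to the 3′ end of each gene. Mtf2 has 4 probes, Jarid2 has 3, Suz12, Rnf2, Ring1 and Pcgf6 have 2 each, and Ezh1, Ezh2, Eed and Cbx7 have 1 each. Probes of a gene share its transcripts and are not replicates. The array's oligonucleotides are 60 bases long. Those shown here are the upstream probes of Mtf2, Suz12 and Rnf2 that rose in p400 knockdown while the most 3′ probe of the same gene did not pass the test.
Mtf2 probe 1: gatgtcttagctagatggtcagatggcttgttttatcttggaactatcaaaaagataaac
Mtf2 probe 2: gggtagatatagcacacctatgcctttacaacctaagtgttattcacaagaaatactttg
Mtf2 probe 3: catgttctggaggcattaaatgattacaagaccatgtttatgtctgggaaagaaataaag
Suz12 probe 1: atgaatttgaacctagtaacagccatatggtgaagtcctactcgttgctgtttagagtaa
Rnf2 probe 1: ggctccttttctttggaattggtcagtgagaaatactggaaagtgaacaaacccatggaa
The 3 Mtf2 probes lie on the plus strand at mm7 chr5:107258308-107258480, chr5:107270744-107271524 and chr5:107276490-107278175. Each position covers more than 60 bases of genome (173, 781 and 1686), so these probes match spliced RNA across an intron. Mtf2 probe 4 lies downstream at chr5:107286243-107286302. Suz12 probe 1 lies at chr11:80095051-80095110 on the plus strand and probe 2 at chr11:80115324-80115383. Rnf2 probe 1 lies at chr1:151404443-151404502 on the minus strand and probe 2 at chr1:151402951-151403010.

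p400 knockdown against EGFP answers which of these genes changed when p400 was reduced. Of the 18 tested probes, 7 rose and 2 fell (limma, adjusted p under 0.05), and the probes called belong to 6 genes. The probes that rose were those of Jarid2 (2), Mtf2 (3 of 4), Suz12 (1 of 2) and Rnf2 (1 of 2), and those that fell were Cbx7 and Ezh1. Among all 27952 probes tested, 33.1% were called, 18.1% higher and 15.1% lower. The member probes had a median log2 ratio of 0.13, against -0.00 over all probes tested. When each gene was represented by its brightest probe, 1 member (Jarid2) rose and 2 (Cbx7 and Ezh1) fell, where 35% of all 18691 genes were called, 20.1% higher and 15% lower. The median log2 ratio was then -0.04 for the members and 0.01 for all genes. The 9 probes called of 18 thus stand beside a background in which many probes were called. Centring each array on its median in place of the loess curve, which follows the dye bias with brightness, moved the split of member calls from 7 higher and 2 lower to 2 higher and 7 lower. With that centring, 14% of all probes tested were called higher and 34.3% lower. The median of all probes stood at -0.10 in place of -0.00, and that of the member probes at -0.16. Only 4 of the 9 calls held under median centring. Scaling the arrays to a common spread left 1 of them. The 8 calls lost there had fitted changes at least as large as before, such as 0.96 for Jarid2 probe 3 and -0.40 for Ezh1 (limma, adjusted p = 0.112 and 0.0514).

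**Figure D1:**
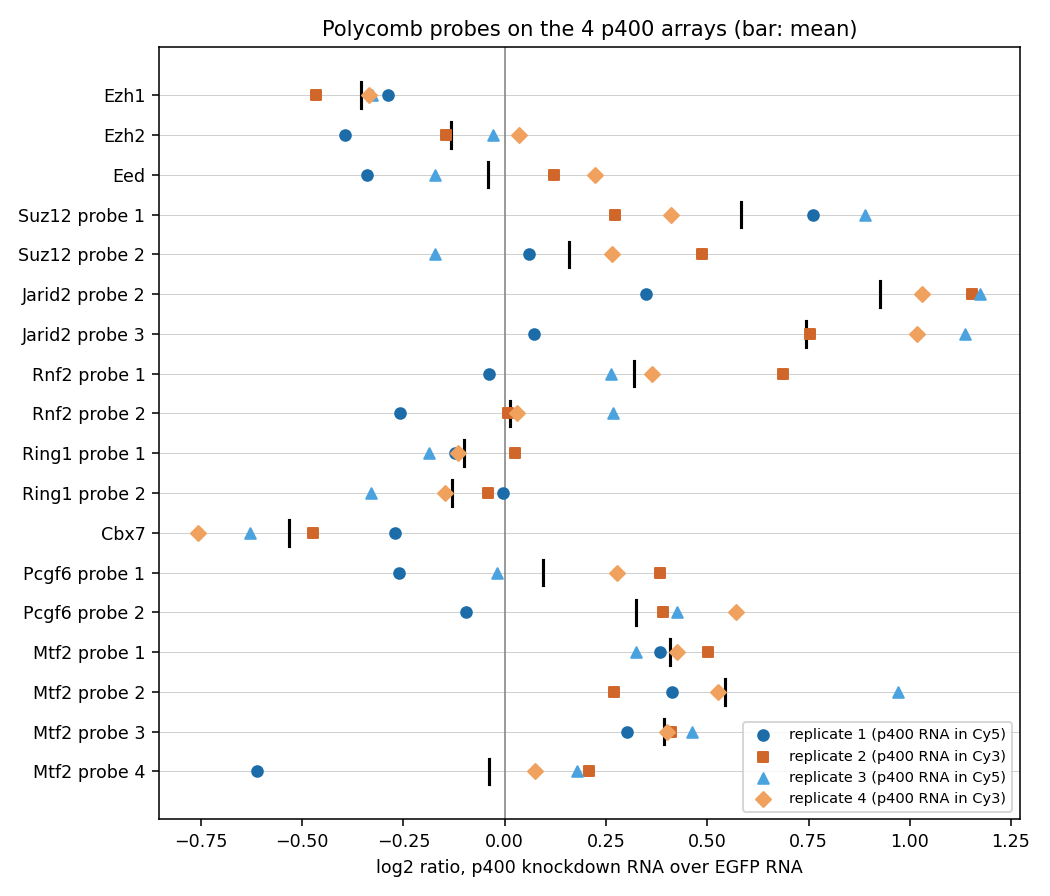
Log2 ratio of p400 knockdown RNA over EGFP RNA (x axis) for the 18 tested probes of the 10 Polycomb genes (y axis). Each symbol is 1 of the 4 arrays, coloured by the dye that held the knockdown RNA, and the black bar is the mean. Both Jarid2 probes and 3 of the 4 Mtf2 probes lie above 0 on all 4 arrays, and Cbx7 and Ezh1 lie below 0 on all 4.

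Among the accessory subunits of PRC2, Jarid2 had the largest rise of the 10 genes. Jarid2 lacks demethylase activity of its own and recruits PRC2. Probe 2 (chr13:44369631-44369690, plus strand) had log2 ratios of 0.35, 1.15, 1.17 and 1.03 on replicates 1 to 4. Replicate 1 was the lowest, and the other replicates lay close together. The mean was 0.93 ± 0.13 (SE, n = 4), a 1.90-fold rise (limma, adjusted p = 0.00482). Probe 3 (chr13:44370473-44370532), the brightest of the gene, had log2 ratios of 0.07, 0.75, 1.14 and 1.02 and a mean of 0.74 ± 0.17 (SE, n = 4), a rise that passed the test (limma, adjusted p = 0.0186). Both probes were above 0 on all 4 arrays. Without replicate 1, the fitted values were 1.13 for probe 2 and 1.01 for probe 3. With median centring, probe 2 remained called at 0.62, and probe 3 was at 0.40 (limma, adjusted p = 0.0800).

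Mtf2 (Pcl2) is a Polycomb-like protein that binds unmethylated CpG-rich DNA and brings PRC2 there. Its probe 1 had log2 ratios of 0.38, 0.50, 0.32 and 0.42, and probe 3 had 0.30, 0.41, 0.46 and 0.40. These are the tightest sets among the probes that rose. Probe 1 rose by 0.41 ± 0.06 (SE, n = 4; limma, adjusted p = 0.00618) and probe 3 by 0.39 ± 0.07 (SE, n = 4; limma, adjusted p = 0.00777). Probe 2, with 0.41, 0.27, 0.97 and 0.53, rose by 0.55 ± 0.11 (SE, n = 4; limma, adjusted p = 0.0124). Probe 4, the most 3′ and the brightest, had -0.61, 0.21, 0.18 and 0.07, with a mean of -0.04 ± 0.13 (SE, n = 4; limma, adjusted p = 0.848). On every array, probes 1, 2 and 3 were each above probe 4. The differences averaged 0.45 ± 0.38, 0.58 ± 0.42 and 0.43 ± 0.33 on the log2 scale (SD, n = 4), with the highest on replicate 1. With median centring, probes 1, 2 and 3 were at 0.08, 0.20 and 0.05, where none passed the test (limma, adjusted p = 0.386, 0.150 and 0.613).

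**Figure D2:**
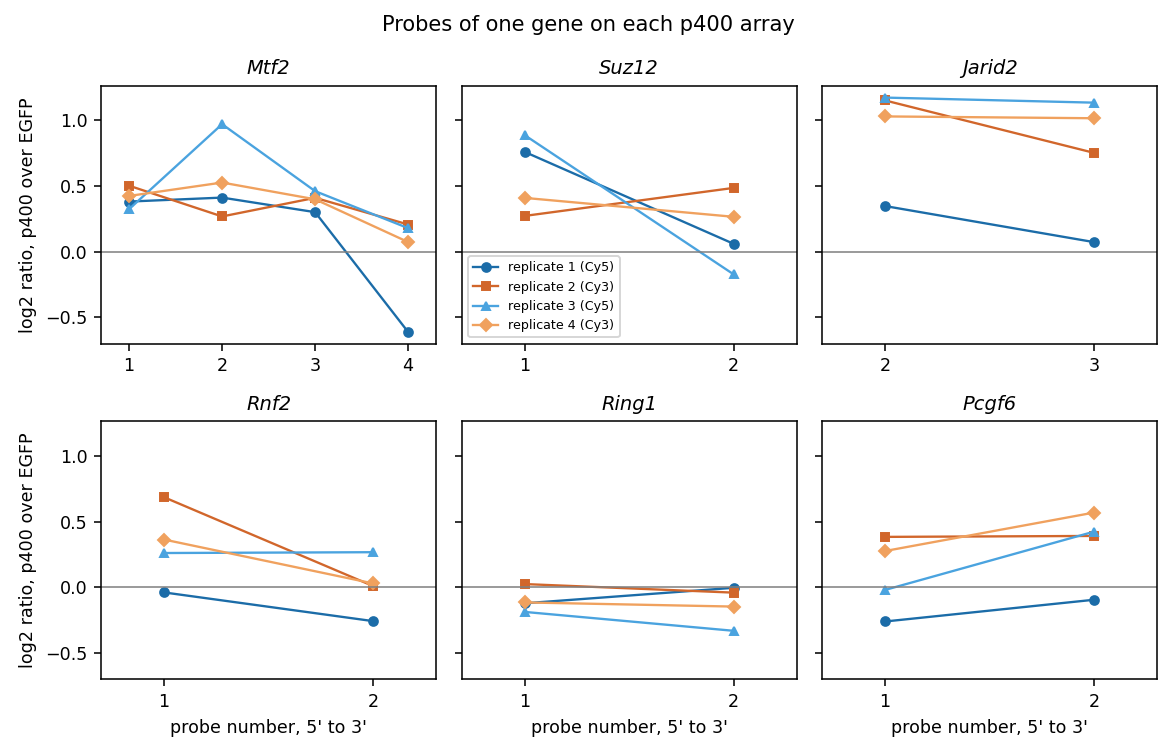
Log2 ratio of p400 knockdown RNA over EGFP RNA (y axis) for the tested probes of the 6 genes with several, in order from 5′ to 3′ (x axis, probe number). Each line joins the probes of a gene on 1 of the 4 arrays. Mtf2 probes 1 to 3 lie above probe 4 on each array. Suz12 probe 1 lies above probe 2 on replicates 1, 3 and 4 and below it on replicate 2.

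In the core of PRC2, the probes differed. Ezh1, the methyltransferase subunit that is less active than Ezh2 and lasts in cells that no longer divide, fell. Its probe (chr11:101300862-101300921, minus strand) had log2 ratios of -0.29, -0.47, -0.33 and -0.33, below 0 on all arrays with little spread. The mean was -0.35 ± 0.07 (SE, n = 4; limma, adjusted p = 0.0103). Without replicate 2 the value was -0.32, which did not pass the test (limma, adjusted p = 0.0683). Ezh2, the main methyltransferase of dividing cells, was measured by a probe that crosses an intron (chr6:47568744-47569639, minus strand). Its ratios of -0.39, -0.14, -0.03 and 0.03 straddled 0, with a mean of -0.13 ± 0.09 (SE, n = 4; limma, adjusted p = 0.274) and a 95% interval from -0.34 to 0.07. Eed, the subunit that binds the finished mark and stimulates the enzyme, was also read across an intron (chr7:85913246-85916155, minus strand). Its ratios were -0.34, 0.12, -0.17 and 0.22, and its mean was -0.04 with a 95% interval from -0.21 to 0.12 (limma, adjusted p = 0.670). Under median centring Ezh2 was called at -0.46 and Eed at -0.38 (limma, adjusted p = 0.00539 and 0.00524).

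Suz12 holds PRC2 together and is needed for its activity. Probe 1 had log2 ratios of 0.76, 0.27, 0.89 and 0.41 and rose by 0.58 ± 0.07 (SE, n = 4; limma, adjusted p = 0.00268). It was high on the arrays with knockdown RNA in Cy5 and lower on those with it in Cy3, a dye difference that the model's dye term takes up. Probe 2 had 0.06, 0.49, -0.17 and 0.27, which is the opposite order, and a mean of 0.16 ± 0.08 (SE, n = 4; limma, adjusted p = 0.161). Probe 1 exceeded probe 2 by 0.42 ± 0.57 (SD, n = 4) and on 3 of 4 arrays. On replicate 2 the difference was -0.21.

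In PRC1, Cbx7 fell. Its probe (chr15:79999970-80000029, minus strand) had log2 ratios of -0.27, -0.47, -0.63 and -0.76, below 0 on all 4 arrays. The mean was -0.53 ± 0.09 (SE, n = 4; limma, adjusted p = 0.00761), a 1.45-fold fall. It was called under each alternative setting other than scaling the arrays to a common spread (-0.70; limma, adjusted p = 0.115), with values from -0.84 to -0.44. Rnf2 probe 1 had -0.04, 0.69, 0.26 and 0.36 and rose by 0.32 ± 0.09 (SE, n = 4; limma, adjusted p = 0.0365). Replicate 1 lay near 0 and the other arrays above it. Rnf2 probe 2, at -0.26, 0.01, 0.27 and 0.03, had a mean of 0.01 ± 0.10 (SE, n = 4; limma, adjusted p = 0.937). The call of probe 1 was lost under 6 of 12 alternatives, including leaving out replicate 2 (0.24; limma, adjusted p = 0.193) or replicate 3 (0.24; limma, adjusted p = 0.118).

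Ring1, the partner ligase of Rnf2, had no called probe. Probe 1 (chr17:32100231-32100290, minus strand) lay between -0.19 and 0.02 on the 4 arrays, and probe 2 (chr17:32099560-32099619) between -0.33 and -0.00. The fitted values were -0.10 and -0.13, and the 95% intervals ran from -0.26 to 0.06 and from -0.32 to 0.06. Probe 1 was called at -0.36 with the deposited LogRatio (limma, adjusted p = 0.0423) and probe 2 at -0.26 with median centring (limma, adjusted p = 0.0298). Pcgf6, the subunit that defines the PRC1.6 variant, had ratios of -0.26, 0.38, -0.02 and 0.28 at probe 1 (chr19:46946319-46946378, minus strand). At probe 2 (chr19:46934546-46934605) they were -0.09, 0.39, 0.42 and 0.57, with a mean of 0.32 ± 0.10 (SE, n = 4) that missed the threshold (limma, adjusted p = 0.0505). Without replicate 1, probe 2 was at 0.45 (limma, adjusted p = 0.0145). Here the 3′ probe was the higher one on all 4 arrays.

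Replicate 1 gave the lowest of the 4 ratios for 10 of the 18 member probes, where it was the lowest for 27.2% of all probes tested. This included both Jarid2, Rnf2 and Pcgf6 probes, Ezh2, Eed and Mtf2 probes 3 and 4. On that array the brightest Ep400 probe was within the range of the other arrays, and the second Ep400 probe, at 0.06, was not. Without replicate 1, 10 member probes were called, among them all 9 of the full set. Without replicate 2, 7 were called, having lost Ezh1 and Rnf2 probe 1. Of all probes tested, 30.1% were called without replicate 1 and 16.5% without replicate 2, against 33.1% with all 4 arrays. Of the member probes, 9 of 18 had ratios of 1 sign on all arrays, 6 above and 3 below 0, against 51.9% of all probes tested.

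Tip60 knockdown against EGFP moved fewer member probes past the threshold. Of 18 tested, 1 rose (Jarid2 probe 2) and 1 fell (Cbx7), where 22.7% of all 25303 probes tested were called, 13.2% higher and 9.48% lower (limma, adjusted p under 0.05). At an unadjusted p under 0.05 there were 5 of 18, beside 35.4% of all probes. The median log2 change was 0.07, against 0.00 over all probes. By the brightest probe of each gene, 0 members rose and 1 (Cbx7) fell, where 24.3% of all 16949 genes were called, 14.8% higher and 9.5% lower. The EGFP and Tip60 groups did not overlap at 5 of 18 member probes (4 higher and 1 lower), against 34.6% of all probes. All levels below are log2 signals minus the 75th percentile of their array, and they are set only against other arrays for the same probe.

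**Figure D3:**
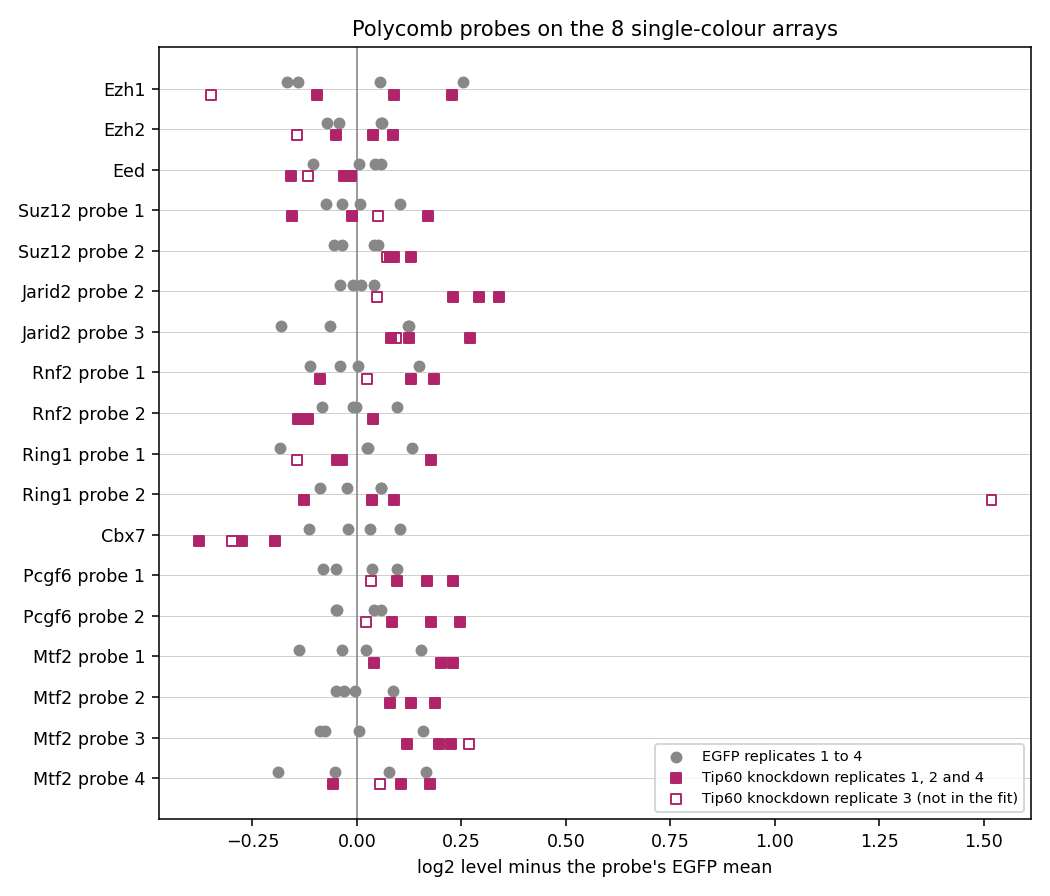
Log2 level minus the EGFP mean of the same probe (x axis) for the 18 tested probes (y axis) on single-colour arrays. Grey circles are the 4 EGFP replicates, filled squares Tip60 replicates 1, 2 and 4, and open squares the replicate that was not in the fit. Cbx7 lies below and Jarid2 probe 2 above all EGFP arrays in the filled squares, and the open square of Ring1 probe 2 stands far to the right.

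Jarid2 probe 2 was at 2.14, 2.11, 2.06 and 2.09 in EGFP replicates 1 to 4 and at 2.44, 2.33 and 2.39 in Tip60 replicates 1, 2 and 4. The groups did not overlap. The rise of 0.29 ± 0.05 (SE, n = 3 against 4; limma, adjusted p = 0.00884) was 1.22-fold. Tip60 replicate 3, outside the fit, was at 2.15 and thus close to the EGFP arrays. Probe 3 was at 4.07, 4.26, 3.96 and 4.26 in EGFP and 4.41, 4.22 and 4.26 in Tip60 knockdown, which overlap. Its difference of 0.16 ± 0.10 (SE, n = 3 against 4) did not pass the test (limma, adjusted p = 0.281). Scaling by the median moves all probes of an array by the same amount. It put the median of all probes at -0.21 and Jarid2 probe 2 at 0.08 (limma, adjusted p = 0.518).

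Cbx7 was at 2.66, 2.88, 2.76 and 2.81 in EGFP and at 2.58, 2.51 and 2.40 in Tip60 knockdown. Every Tip60 array was below every EGFP array, and replicate 3, at 2.48, was as well. The fall of 0.28 ± 0.07 on the log2 scale, a fitted change of -0.28 (SE, n = 3 against 4), was 1.22-fold (limma, adjusted p = 0.0323). It kept its direction under all 20 alternatives, from -0.49 to -0.23, and lost the call under 11 of them. The array slides held both groups: the change was -0.26 within the slide of EGFP replicates 1 and 3 and Tip60 replicates 2 and 4 (limma, adjusted p = 0.153). On the other slide, where Tip60 replicate 1 stood alone against EGFP replicates 2 and 4 and was assumed to vary as they did, it was also -0.26 (limma, adjusted p = 0.287). For Jarid2 probe 2 the within-slide values were 0.26 and 0.34 (limma, adjusted p = 0.131 and 0.188). With the slide as a block over all 7 arrays, both calls held, at -0.26 for Cbx7 and 0.29 for Jarid2 probe 2 (limma, adjusted p = 0.0202 and 0.0106). Jarid2 probe 3 was then called as well, at 0.20 (limma, adjusted p = 0.0467). Leaving out any of Tip60 replicates 2 and 4 or EGFP replicates 2, 3 and 4 ended the Cbx7 call, with values from -0.29 to -0.23.

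The other members did not pass the test in Tip60 knockdown. Both Pcgf6 probes were higher on each Tip60 array in the fit than on any EGFP array: probe 1 spanned 0.99 to 1.16 in EGFP and 1.16 to 1.30 in Tip60 knockdown, so that the groups were apart by less than the rounding. Probe 2 was at 3.73, 3.62, 3.62 and 3.71 in EGFP and 3.85, 3.76 and 3.92 in Tip60 knockdown, a difference of 0.17 ± 0.06 (SE, n = 3 against 4; limma, adjusted p = 0.0971). The 4 Mtf2 probes differed by 0.16, 0.13, 0.18 and 0.07 from probe 1 to probe 4 (limma, adjusted p from 0.135 to 0.645). Suz12 probe 2 was at 2.72, 2.64, 2.73 and 2.62 in EGFP and 2.76, 2.77 and 2.81 in Tip60 knockdown, which do not overlap, with a difference of 0.10 ± 0.05 (SE, n = 3 against 4; limma, adjusted p = 0.236). Suz12 probe 1 had a difference of 0.00 with a 95% interval from -0.21 to 0.21. For Ezh1, Ezh2 and Eed the differences were 0.07, 0.02 and -0.07, with 95% intervals from -0.22 to 0.37, -0.12 to 0.17 and -0.22 to 0.09. Rnf2 gave 0.07 and -0.07 and Ring1 gave 0.03 and -0.00 at probes 1 and 2.

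Setting the p400 effect against the Tip60 effect tested whether a member responded differently to the knockdowns. Of 18 member probes 0 passed (limma standard errors of both fits, adjusted p under 0.05), where 3.45% of all 25136 probes did, 1.99% with the p400 effect higher and 1.46% with it lower. At an unadjusted p under 0.05 there were 5 of 18, beside 24.3% of all probes. With degrees of freedom by the Satterthwaite formula 2 of 18 passed, Suz12 probe 1 and Jarid2 probe 2, beside 13.2% of all probes. For Suz12 probe 1 the p400 effect was 0.58 and the Tip60 effect 0.00. The difference of 0.58 had a 95% interval from 0.31 to 0.85 (limma standard errors, adjusted p = 0.0503). For Jarid2 probe 2 the effects were 0.93 and 0.29, with a difference of 0.64 and a 95% interval from 0.29 to 0.99 (limma standard errors, adjusted p = 0.0677). For Ezh1 they were -0.35 and 0.07, with a difference of -0.43 and a 95% interval from -0.77 to -0.09 (limma standard errors, adjusted p = 0.138). For Cbx7 they were -0.53 and -0.28, and the difference of -0.25 had a 95% interval from -0.53 to 0.03 (limma standard errors, adjusted p = 0.250). The arrays of the knockdowns differ in format, so these differences also carry the difference between 2-colour ratios and single-colour levels.

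**Figure D4:**
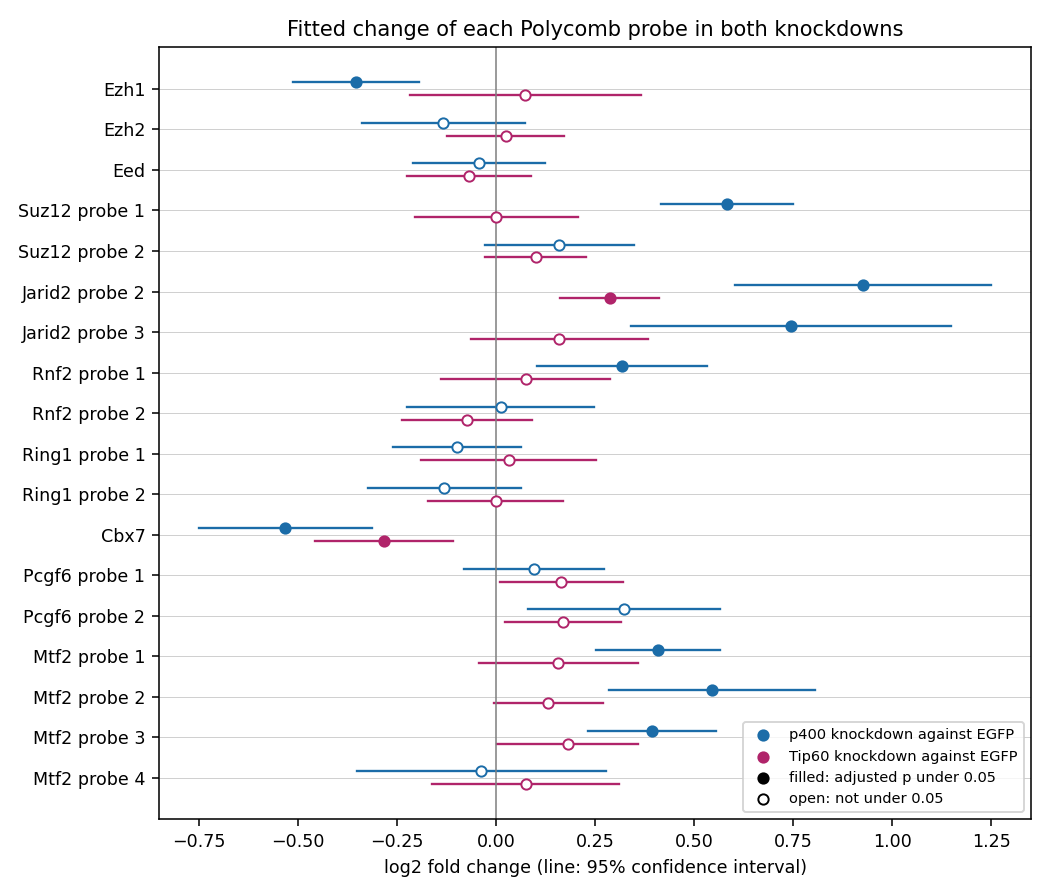
Fitted log2 fold change against EGFP (x axis) for each of the 18 tested probes (y axis), p400 knockdown in blue and Tip60 knockdown in magenta, with 95% confidence intervals. Filled points passed an adjusted p of 0.05 in limma. In p400 knockdown 9 points are filled, and in Tip60 knockdown Jarid2 probe 2 and Cbx7 are.

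The genes whose pattern was most like those of Jarid2 and Cbx7 were ranked by Pearson's r over 11 values (4 p400 ratios and 7 single-colour levels minus the EGFP mean), among 16426 genes. These values share arrays, and the r is a description. For Jarid2 probe 3 they were Pdcd7 (r = 0.98), D030056L22Rik (r = 0.97) and Pabpc4 (r = 0.97). For Cbx7 they were Mmp14 (r = 0.98), Alpl (r = 0.97) and Dlg3 (r = 0.97). Mmp14, a membrane-bound metalloproteinase, had log2 changes of -0.92 in p400 and -0.59 in Tip60 knockdown.

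Other Polycomb genes were counted by their brightest tested probe, beside the same background of 20.1% of genes higher and 15% lower in p400 knockdown and 14.8% and 9.5% in Tip60 knockdown. Of 8 other PRC2 subunits, 1 rose and 2 fell in p400 knockdown, with a median log2 ratio of -0.17. Epop, which links PRC2 to elongin, rose 2.14-fold in p400 knockdown (limma, adjusted p = 0.00306), while Aebp2, a DNA-binding cofactor, fell to -0.49 and Phf1, a relative of Mtf2, to -0.42. A second Aebp2 probe was at -0.05. In Tip60 knockdown Epop rose by 0.31 (limma, adjusted p = 0.00572) and was the only one of the 8 called.

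Of 10 other canonical PRC1 subunits tested, 4 rose and 1 fell in p400 knockdown, and 3 rose and 1 fell in Tip60 knockdown. Scml2 rose by 1.07 in p400 and by 0.73 in Tip60 knockdown. Cbx6, a chromodomain protein like Cbx7, fell in both (-0.48 and -0.44). Phc1, which joins PRC1 complexes into polymers, rose by 0.82 in p400 knockdown (limma, adjusted p = 0.00288) and was at 0.02 in Tip60 knockdown. Cbx8 was at 0.16 in p400 knockdown and rose by 0.53 in Tip60 knockdown, where its second probe was at 0.12. Cbx6 and Cbx7 thus fell in both comparisons.

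Of 18 other variant PRC1 subunits tested, 5 rose and 2 fell in p400 knockdown, and 2 rose and 1 fell in Tip60 knockdown. Pcgf5, the defining subunit of the PRC1.5 variant, rose by 0.73 and 0.42 at its brightest probe, but its other probe was at -0.29 and -0.06, and the -0.29 was called. Kdm2b, which takes PRC1.1 to CpG islands, rose by 0.55 and 0.33, with its other probes at 0.41 and -0.03 in p400 and 0.32 and -0.20 in Tip60 knockdown. Rybp rose by 0.39 in p400 knockdown and was at -0.07 in Tip60 knockdown, but its dimmer probe rose in both (0.78 and 0.48). Cbx3 (-0.70) and Pcgf1 (-0.22) fell in p400 knockdown. The other Cbx3 probes were at -0.64 and -0.16 there, and at -0.29 and -0.63 in Tip60 knockdown, where the -0.63 was called. Auts2 was at -0.04 in p400 knockdown and fell by 0.40 in Tip60 knockdown (-0.40), where its other probe was at -0.08. Of 9 genes of the PhoRC and PR-DUB complexes tested, 3 rose and 2 fell in p400 knockdown. Foxk1 rose by 0.75, with its other probes at 0.52 and 0.02, and Asxl1 by 0.67, with its other probes at 0.35 and 0.14. Yy1, the DNA-binding subunit of PhoRC, rose by 0.45 at its brightest probe, and its other probes, at 0.23 and 0.01, did not pass the test. Ogt fell at all 3 probes (-0.54, -1.04 and -0.25). Sfmbt1 fell at its brightest probe (-0.21), with the others at -0.04 and -0.22, not called. In Tip60 knockdown Foxk1 rose by 0.82, with other probes at 0.77 and 0.50, and Yy1 was at -0.08. Sfmbt2 fell (-0.51), with other probes at -0.47 and -0.34, and Asxl2 fell at all 3 probes (-0.22, -0.68 and -0.33).

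Among the enzymes that oppose Polycomb, the lysine 27 demethylases and the lysine 4 methyltransferases with their cofactors, 0 of 10 rose and 2 fell in p400 knockdown (Uty at -0.37 and Rbbp5 at -0.32). In Tip60 knockdown 0 of 9 rose and 2 fell, Kmt2a (-0.47) and Kmt2d (-0.39). Median centring of the p400 arrays turned the median of the variant PRC1 genes from 0.08 to -0.21 and left 1 higher and 6 lower. It gave 1 higher and 5 lower for the other PRC2 subunits, 2 and 6 for PhoRC and PR-DUB, and 0 and 6 for the opposing enzymes, beside the 14% of all probes higher and 34.3% lower. The canonical PRC1 counts stayed at 4 and 1. Median scaling of the single-colour arrays gave 0 higher and 7 lower for the variant PRC1 genes and 2 and 2 for the canonical PRC1 genes, whose median turned from 0.08 to -0.13. That scaling called 7.41% of all probes higher and 29.4% lower.

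**Figure D5:**
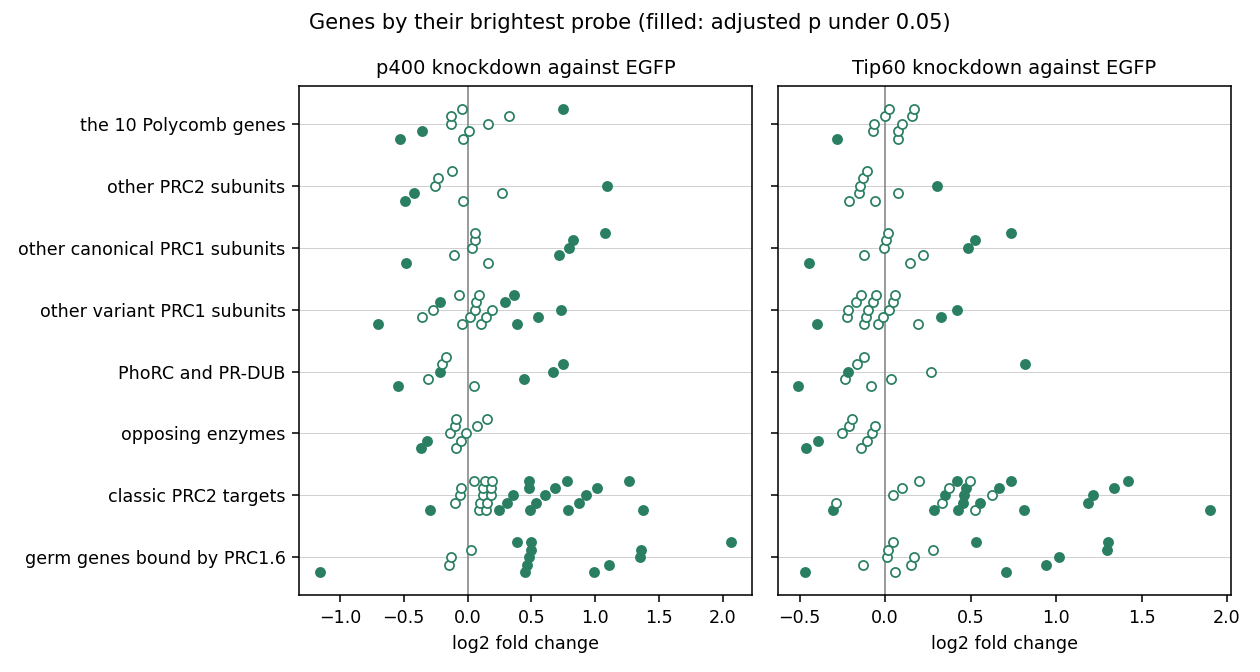
Log2 fold change (x axis) of each gene by its brightest tested probe, for the 10 Polycomb genes and 7 other lists (rows), in p400 knockdown (left) and Tip60 knockdown (right). Filled points passed an adjusted p of 0.05 in limma. Of the 10 Polycomb genes, 3 are filled on the left and 1 on the right.

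Genes that Polycomb complexes are known to silence were read beside the members. Of 37 classic PRC2 targets, 31 were tested in p400 and 26 in Tip60 knockdown. A target that is dim in EGFP RNA entered a test only where knockdown RNA was bright, so the counts of rises are a description only. In p400 knockdown 16 were called higher and 1 lower, beside 20.1% and 15% of all genes. Hoxd13 was at 1.37, Gata6 at 1.26, Sox17 at 1.01 and Pax6 at -0.30. The other probes of Gata6 and Pax6 were at 0.23 and 0.09, and in Tip60 knockdown Gata6 was at 0.42. With the deposited LogRatio 21 were called higher and 2 lower in p400 knockdown, and the median of the targets was 0.78 in place of 0.24. Over all probes, LogRatio called 18.8% higher and 24.7% lower. In Tip60 knockdown 16 were called higher and 1 lower, beside 14.8% and 9.5% of all genes. The higher calls were 8 with median scaling and 11 with normexp background or the series matrix. Over all probes, 7.41%, 9.13% and 8.66% were called higher under these settings, in that order. The median of the targets moved from 0.47 to between 0.25 and 0.29 under these. Msx1 was at 1.42, with its other probe at 2.30, and Pax6 at -0.30. Evx1 and Hoxa9 were well above background on only 1 of 4 EGFP arrays. Evx1 was at 1.90, with alternatives from 0.61 to 2.02. Hoxa9 was at 1.34, with alternatives from 0.30 to 1.94, and lost its call under 3 of 19 of them, the lowest with normexp background (limma, adjusted p = 0.0902). Several of these targets also mark endoderm or trophectoderm, and Pax6 also marks neural ectoderm. Of the endoderm markers tested, 6 of 9 rose in p400 and 7 of 8 in Tip60 knockdown. Of 10 trophectoderm markers, 6 rose and 2 fell in p400 and 4 rose and 1 fell in Tip60 knockdown. Of neural ectoderm markers tested, 3 of 6 rose and 1 fell in p400, and 1 of 5 rose and 1 fell in Tip60 knockdown. Of feeder fibroblast markers tested, 3 of 6 rose and 1 fell in p400, and 1 of 7 rose and 1 fell in Tip60 knockdown. Of the 10 endoderm markers, 7 were well above background on all EGFP arrays and 2 on none, and of the 10 trophectoderm markers 9 and 0. An endoderm marker on none of them was tested in both knockdowns only because knockdown RNA was bright, and it counts among the rises. Such marker counts are thus a description only. The summed level of the endoderm markers ran from 11.1 to 14.0 times the array's 75th percentile in EGFP and from 16.1 to 20.2 in Tip60 knockdown. For trophectoderm markers it ran from 78.5 to 88.6 and from 83.6 to 99.9. The part of these markers in the result was not tested.

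Of the germ cell genes bound by PRC1.6, the complex of Pcgf6, 15 were tested, of which 11 rose and 1 fell in p400 knockdown and 6 rose and 1 fell in Tip60 knockdown. Over all genes, 20.1% rose and 15% fell in p400 and 14.8% and 9.5% in Tip60 knockdown. The list was chosen with earlier results of these data known, so its counts are a description only. Dazl, an RNA-binding protein of germ cells, rose by 2.07 ± 0.09 (SE, n = 4; limma, adjusted p = 0.000185) and by 1.30 ± 0.08 (SE, n = 3 against 4; limma, adjusted p = 3.4e-05). Sycp1, a protein of the synaptonemal complex that pairs chromosomes in meiosis, rose by 1.36 and 1.02. Slc25a31 rose by 1.36 in p400 knockdown and Smc1b by 1.31 in Tip60 knockdown. Sycp3, another protein of that complex, went the other way, at -1.16 and -0.47, and passed the test in both. Pcgf6 itself was at 0.10 and 0.32 at probes 1 and 2 in p400 knockdown and at 0.16 and 0.17 in Tip60 knockdown. None of these values passed the test, but probe 2 was called in p400 knockdown under 4 of 13 alternative settings. The part of Pcgf6 in the changes of these germ cell genes was not tested. With median centring the p400 split of these 15 genes was 6 higher and 4 lower, and their median was 0.19 in place of 0.48. Over all probes, that centring called 14% higher and 34.3% lower, with a median of -0.10 in place of -0.00. With median scaling their Tip60 median was -0.04 in place of 0.17, and that of all probes was -0.21 in place of 0.00.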

How the data were processed

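Gene expression was measured on Agilent 4x44K mouse arrays (mm7 positions, per the file headers). Per the file headers, Agilent Feature Extraction 9.5.1.1 produced the deposited intensity of each spot, its local background and a processed signal. The deposited LogRatio is a log10 ratio of red over green. The series matrix deposited by the authors is on a log2 scale, and how it was normalized is not given in the sources used here. Its p400 columns had medians of 0 to 0.01 and its single-colour columns of 7.26 to 7.27. It followed LogRatio at r = 0.80 to 0.82 in size, with the sign of the dye order in the labels.

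For p400, mean signals were background-corrected (normexp, offset 50) and loess-normalized within each array. A limma 3.58.1 (R 4.3.3) model held the knockdown and a dye term. Every SE printed is limma's moderated standard error of the fitted change, for p400 after the dye term. It is not the standard error of the listed ratios, whose own spread can be larger. For Tip60, each array's 75th percentile was subtracted from its log2 processed signals, and groups were compared with limma. Control spots (1639 an array) and flagged outlier spots were left out. Testing a probe required 3 or more arrays well above background in one of the RNAs compared. P-values are two-sided and Benjamini-Hochberg adjusted over all probes tested, with a threshold of 0.05. Differences between effects used the summed squared standard errors and the smaller degrees of freedom of both fits. Log2 levels are not compared between probes. The fits were checked on simulated arrays with planted changes. The number of arrays limits the precision.

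The rule for the members uses gene names only, but the choice of these genes and of the lists was made with earlier results of these data known. All member probes were named. Each other list had up to 3 rises and 3 falls named per comparison, along with Ep400 and Kat5 and the 3 most alike genes of Jarid2 and Cbx7. A gene that this rule takes is not reported here. Beside these stand some values of a named gene in the other comparison, and values of its other probes where they differ. Names come from the accession (22951 probes), symbol (6659) or synonym (3109) in the reference genes, or from the file (8455). Same-numbered EGFP and Tip60 arrays did not deviate together (r = -0.25, -0.30 and -0.11). All of these pairs lay on different slides, where same-slide pairs had r from -0.22 to 0.54. The check therefore cannot tell pairing from slide, and replicate numbers were not used as pairs.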

Additional observations from a re-analysis of the deposited data

Results flagged for a closer look

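In 54 groups of 4 arrays (18 probes; p400 ratios, EGFP levels and Tip60 levels), 4 arrays lay far from the other arrays of their group by Dixon's criterion. Chance alone marks about 1 in 20 such groups. Mtf2 probe 4 was at -0.61 on p400 replicate 1, where the other ratios lay between 0.07 and 0.21. Mtf2 probe 1 was at 3.17 on Tip60 replicate 2, and the other Tip60 arrays lay between 3.33 and 3.36. Rnf2 probe 2 was at 2.85 on Tip60 replicate 4, with the others between 2.67 and 2.69. Ring1 probe 2 was at -0.25 on Tip60 replicate 3, the array that was outside the fit, with the others between -1.90 and -1.68.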

How the results depend on the processing

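For the p400 comparison, 9262 probes and 9 member probes were called. Scaling the arrays to a common spread gave 4394 and 1. Leaving out 1 array gave 4612 (without replicate 2) to 8406 probes and 7 to 10 member probes. Rnf2 probe 2 turned from 0.01 to -0.31 with median centring (limma, adjusted p = 0.0405). Of all p400 calls 54.6% were higher, against 43.2% with LogRatio, 29.0% with median centring and 68.1% with scaled arrays.

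For the Tip60 comparison, 5743 probes and 2 member probes were called. Counts were 9327 and 1 with median scaling, 3635 and 1 with no filter, 2242 and 0 within the first slide, and 1731 and 0 within the other, where 1 Tip60 array stands alone. With slide as a block they were 6337 and 3. With normexp background 1 member probe was called. With replicate number as a block, 2246 probes and 0 member probes were called. Whether the numbers mark pairs could not be told apart from slide. Leaving out 1 array gave 3986 to 4761 probes and 1 to 2 member probes. Of all Tip60 calls 58.2% were higher, against 20.1% with median scaling, 41.4% with quantile normalization, 44.9% with the series matrix and 72.2% with no filter.

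For the difference between effects, 866 probes and 0 member probes were called. Counts were 3310 and 2 with degrees of freedom by the Satterthwaite formula, 1847 and 2 with the series matrix, and 382 with median centring and scaling. With Tip60 replicate 3 included 1 member probe was called, and with the replicate block 0 probes were (limma standard errors; 0 adjusted p under 0.05). Leaving out 1 array gave 0 (without p400 replicate 3) to 857 probes and 0 to 2 member probes. The cause of these shifts was not tested. With 3 or 4 arrays a group, the standard errors of the member probes ran from 0.05 to 0.17. Pcgf6 probe 2, at 0.32 with a standard error of 0.10 in p400 knockdown, was not called (limma, adjusted p = 0.0505). Changes well above their standard error could thus go undetected.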
